A study of Mus musculus with 16 samples.

Results

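The small leucine-rich proteoglycans and the lysyl oxidases are secreted proteins that coat and cross-link collagen fibrils. The 10 genes described were named for description by their symbols in the array's platform annotation, namely Lum, Dcn, Bgn, Fmod, Ogn and Aspn among the proteoglycans and Lox, Loxl1, Loxl2 and Loxl4 among the lysyl oxidases. Of these 10 genes, 9 were found among the 19505 genes tested, and where a gene had several probe sets the brightest on average was used. Loxl2 had no probe set with its symbol and is not analysed here. The samples were liver biopsies of C57BL/6 mice measured on single-colour arrays of the Affymetrix type. They comprise 8 controls and 8 samples of a mouse model of nonalcoholic steatohepatitis (NASH), in which a fatty liver becomes inflamed and can scar. The labels do not say how the model was induced or for how long, give no age or treatment, and mention no genetic change in either group. Whether each biopsy came from a separate mouse is not stated either, so the p-values rest on the spread among biopsies, part of which may be technical. The study's title concerns stimulation of soluble guanylate cyclase, the nitric oxide receptor, and the comparison possible here is model liver against control liver.

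A small leucine-rich proteoglycan has a curved core of leucine-rich repeats that binds the surface of a collagen fibril and limits how thick it grows. Decorin (Dcn) and biglycan (Bgn) carry chondroitin or dermatan sulphate chains, lumican (Lum) and fibromodulin (Fmod) carry keratan sulphate or its unsulphated precursor, and asporin (Aspn) carries none. Lysyl oxidases are copper enzymes that oxidise lysines of collagen and elastin, which starts the covalent cross-links between molecules. In the liver these proteins are made mainly by stellate cells, portal fibroblasts and the myofibroblasts that arise from them, and they gather in scar tissue.

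The tissue label and the quality of the arrays were checked first. The 8 measured hepatocyte markers stood above the background floor in every sample, and their summed level was 14.7 to 14.8 on the log2 scale in both groups. The floor was 2.89, the 95th percentile of olfactory and vomeronasal receptor genes, which liver is not known to use. Values are normalised log2 intensities, so 1 unit is a doubling, and signals near the floor compress differences. In the comparison of all genes 13.2% were called higher and 13.4% lower in the NASH model (limma, Benjamini-Hochberg adjusted p under 0.05). Of these calls 49.6% were higher, against 39.2% after centring on array medians and 73.7% after centring on spike-in controls. The median difference of all genes was -0.04, and it was -0.12 and 0.06 with those respective centrings.

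Of the 9 genes, 6 were called higher in the NASH model (Lum, Dcn, Bgn, Fmod, Lox and Loxl1), against 13.2% of all genes. None was called lower, against 13.4% of all genes. The genes were chosen with earlier results of these data known, so these counts describe them and are not a test. In Lum, Dcn, Bgn and Loxl1 every NASH model sample lay above every control, which held together with a call for 5.64% of all genes. The median difference over the 6 proteoglycans was 1.14 and over the 3 lysyl oxidases 1.11. Ogn, Aspn and Loxl4 were not called.

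**Figure D1:**
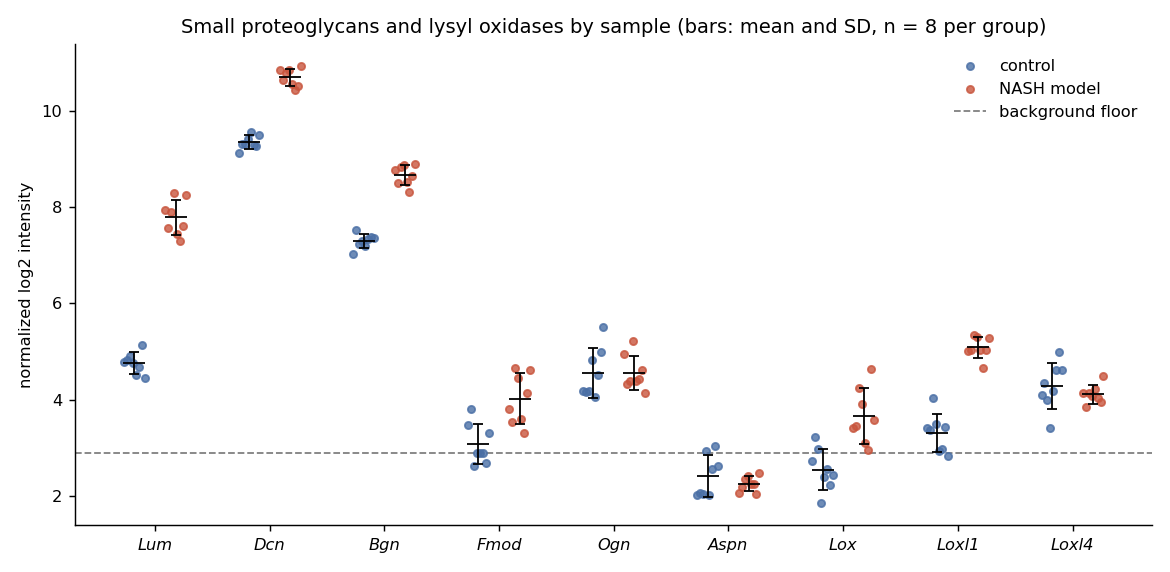
Normalised log2 intensity of each of the 9 genes (horizontal axis) in 8 control samples (blue) and 8 NASH model samples (red), with the mean and SD of each group and the background floor at 2.89 as a dashed line. The groups are apart in Lum, Dcn, Bgn and Loxl1 and overlap in the other 5 genes, and Aspn and the controls of Lox lie mostly below the floor.

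Promoters were matched by symbol to RefSeq sequences of the GRCm38.p6 build. A gene left out here may still have an entry. The promoters of 5 of the 10 genes were examined (Bgn, Fmod, Aspn, Ogn and Loxl4). Of these, 4 are printed because they contrast 2 genes that were called higher, Bgn and Fmod, with 2 genes that were not called and lie close together, Aspn and Ogn. Each is the 250 bases before the gene's start, written 5′ to 3′ on the gene's own strand, which is the plus strand for all 4. They lie at chrX:73483351-73483600 (Bgn), chr1:134037004-134037253 (Fmod), chr13:49544193-49544442 (Aspn) and chr13:49607765-49608014 (Ogn). Capitals mark matches, on either strand, to 5 short motifs. The letters searched were TATAAA for the element that places the start of transcription in some promoters and CCAAT for a common upstream element. The GC box, bound by factors of the Sp family, was searched as GGGCGG. For activator protein 1 the letters were TGANTCA, and for SMAD proteins of the transforming growth factor pathway CAGAC.
Bgn: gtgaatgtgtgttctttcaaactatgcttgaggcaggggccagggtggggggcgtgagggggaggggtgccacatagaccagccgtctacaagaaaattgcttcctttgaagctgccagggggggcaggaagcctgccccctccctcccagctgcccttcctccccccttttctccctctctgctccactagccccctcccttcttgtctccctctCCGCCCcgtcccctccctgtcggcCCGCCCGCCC
Fmod: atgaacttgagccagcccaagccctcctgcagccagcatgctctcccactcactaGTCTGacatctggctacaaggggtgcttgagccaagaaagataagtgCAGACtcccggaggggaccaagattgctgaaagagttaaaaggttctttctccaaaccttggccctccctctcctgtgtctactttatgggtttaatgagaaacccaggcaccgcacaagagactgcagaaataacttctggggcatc
Aspn: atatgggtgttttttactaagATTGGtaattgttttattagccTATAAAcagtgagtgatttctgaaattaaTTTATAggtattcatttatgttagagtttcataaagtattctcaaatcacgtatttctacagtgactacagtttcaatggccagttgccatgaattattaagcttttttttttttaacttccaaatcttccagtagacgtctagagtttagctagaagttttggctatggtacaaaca
Ogn: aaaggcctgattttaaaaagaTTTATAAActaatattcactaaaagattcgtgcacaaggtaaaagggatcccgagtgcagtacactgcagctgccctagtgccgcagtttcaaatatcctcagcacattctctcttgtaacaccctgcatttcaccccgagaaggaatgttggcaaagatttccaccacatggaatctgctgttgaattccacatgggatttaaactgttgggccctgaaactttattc
The Bgn stretch had a GC content of 64.4% and 3 GC boxes, the last 2 of them overlapping at the gene's start. Fmod had a GC content of 51.2% and 2 SMAD matches. Aspn had a GC content of 30% with 2 TATA element matches, which lie 173 to 207 bases before the start, and with 1 match to CCAAT. Ogn had a GC content of 42% with 2 TATA element matches that overlap on opposite strands. Loxl4, not printed, had a GC content of 76% with 3 GC boxes and 1 SMAD match. Among the same 250 bases of all 32851 promoters the median GC content was 52.4%, and a match was present in 12.4% for TATAAA, 33.8% for CCAAT, 32.7% for GGGCGG, 6.75% for TGANTCA and 42.2% for CAGAC. These matches describe the letters only.

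Lum, the keratan sulphate proteoglycan lumican, had the largest difference of the 9 genes. Its level was 4.45 to 5.14 in the controls (median 4.78) and 7.30 to 8.29 in the NASH model samples (median 7.76). The lowest NASH model sample, number 5, was still above the highest control, number 9. The means were 4.76 ± 0.22 and 7.79 ± 0.37 (SD, n = 8 each), a log2 difference of 3.03 ± 0.14 (SE; 95% interval 2.73 to 3.33; adjusted p = 7.7e-12), or 8.15-fold. In these whole-tissue samples more cells of a type and more RNA per cell cannot be told apart, here and in all that follows.

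Decorin, which binds collagen fibrils and also transforming growth factor beta, was higher in every NASH model sample than in any control. Dcn was 9.11 to 9.57 in the controls (median 9.32) and 10.42 to 10.93 in the NASH model samples (median 10.71), again without overlap. It rose by 1.34 ± 0.09 on the log2 scale (means 9.35 ± 0.14 and 10.69 ± 0.18, SD, n = 8; adjusted p = 2.5e-09), or 2.53-fold. Biglycan, a close relative of decorin that can also signal through Toll-like receptors when freed from the matrix, moved by about as much. Bgn was 7.03 to 7.53 in the controls (median 7.32) and 8.30 to 8.89 in the NASH model samples (median 8.71). Its rise was 1.37 ± 0.10 (means 7.29 ± 0.15 and 8.67 ± 0.21, SD, n = 8; adjusted p = 4.1e-09), or 2.59-fold, and the groups did not overlap.

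Fibromodulin, which shares a collagen binding site with lumican, rose from a level near the floor. Fmod was 2.62 to 3.81 in the controls (median 2.90), of which 6 of 8 stood above the floor, and 3.30 to 4.67 in the NASH model samples (median 3.98). Controls 1, 3 and 10 reached the lower NASH model samples, so the groups overlapped. The difference was 0.94 ± 0.21 (means 3.07 ± 0.41 and 4.02 ± 0.53, SD, n = 8; adjusted p = 0.0022), or 1.92-fold.

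Osteoglycin (Ogn, also called mimecan) and asporin did not pass the test. Ogn was 4.06 to 5.51 in the controls (median 4.35) and 4.14 to 5.22 in the NASH model samples (median 4.41), with a difference of 0.01 ± 0.20 and a 95% interval of -0.41 to 0.42 (adjusted p = 0.99). The spread among controls was wide, with control 10 at 5.51 and 4 controls between 4.06 and 4.18. Aspn was above the floor in 2 of 8 controls (2.94 in control 5 and 3.05 in control 9) and in 0 of 8 NASH model samples, which lay between 2.04 and 2.49. Its difference was -0.16 ± 0.15 (95% interval -0.48 to 0.16; adjusted p = 0.50), and no fold is given since both groups lay mainly below the floor.

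Among the lysyl oxidases Loxl1, an enzyme best known for the cross-linking of elastic fibres, had the largest difference. It was 2.83 to 4.04 in the controls (median 3.39), 7 of 8 above the floor, and 4.65 to 5.35 in the NASH model samples (median 5.04). No control reached the lowest NASH model sample. The difference was 1.77 ± 0.15 (means 3.31 ± 0.40 and 5.09 ± 0.22, SD, n = 8; adjusted p = 3.5e-08), or 3.42-fold.

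Lox, the founding enzyme of the family, was above the floor in 2 of 8 controls and in 8 of 8 NASH model samples. Its level was 1.86 to 3.22 in the controls (median 2.50) and 2.96 to 4.65 in the NASH model samples (median 3.51). Only controls 3 and 4 reached the lowest NASH model sample, number 5. The difference was 1.11 ± 0.23 (means 2.55 ± 0.43 and 3.66 ± 0.57, SD, n = 8; adjusted p = 8.7e-04), or 2.16-fold, with most controls below the floor. Loxl4, an enzyme with scavenger receptor domains ahead of its catalytic part, did not pass the test. It was 3.42 to 4.99 in the controls (median 4.27) and 3.84 to 4.48 in the NASH model samples (median 4.10), a difference of -0.17 ± 0.17 (95% interval -0.52 to 0.18; adjusted p = 0.51). The sign of the Loxl4 difference turned with spike-in centring (0.06).

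Exact permutation over the 12870 ways to split the samples gave, for each gene alone and two-sided, p = 0.0001554 for Lum, Dcn, Bgn and Loxl1, the smallest value this design can give. The same unadjusted test gave 0.000777 for Lox, 0.0022 for Fmod, 0.35 for Aspn, 0.37 for Loxl4 and 0.98 for Ogn.

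In all, 5 pairs of related genes were compared by the difference between their log2 values within each sample, with an exact two-sided permutation test and adjustment over the 5 pairs. The Lum difference exceeded that of Dcn by 1.69 ± 0.14 (SE; adjusted p = 0.0003885) and that of Fmod by 2.08 ± 0.21 (adjusted p = 0.0003885). Every NASH model sample lay above every control in both of these within-sample comparisons. For Dcn against Bgn the gap was -0.03 ± 0.07 (exact permutation, adjusted p = 0.66). For Ogn against Aspn the gap was 0.16 ± 0.19 (exact permutation, adjusted p = 0.49). Since Aspn lay mainly below the floor in both groups, this pair cannot show whether the genes respond alike. Lox had a smaller difference than Loxl1 by -0.66 ± 0.25 (exact permutation, adjusted p = 0.038). That last call was lost on leaving out any 1 of 11 samples (controls 1, 3, 6, 7 and 10 and NASH model samples 1a, 1b, 3, 4, 5 and 7), with values from -0.81 to -0.57 and adjusted p up to 0.071 over all such omissions. Lox was below the floor in 6 of 8 controls and Loxl1 in 1 of 8, while Fmod was above it in 6 of 8 controls. The part of the floor in the gaps of Lox with Loxl1 and of Lum with Fmod was not tested.

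Other genes of both families were read from a list. Of the 10 other small leucine-rich proteoglycans measured, 1 was called higher and 1 lower, near the 13.2% and 13.4% of all genes, with a median difference of 0.19. Prelp, a relative of fibromodulin that links the matrix to basement membranes, rose by 0.78 ± 0.10 (adjusted p = 6.4e-06), with NASH model samples at 7.74 to 8.34 and controls at 7.01 to 7.54. Omd, osteomodulin, was lower by -0.72 ± 0.26 (adjusted p = 0.048) with overlapping groups. The Omd call held in only 12 of 28 alternatives, and it was lost with the values as deposited, with cyclic loess, with spike-in centring, with the replicate number as a block, without control 1, 5, 9 or 10 and without NASH model 1a, 2, 5, 6 or 7, among others (differences from -0.87 to -0.33, adjusted p up to 0.40). The differences of Chad (0.30), Ecm2 (0.17), Epyc (-0.01), Kera (0.22), Nyx (-0.19), Optc (-0.23), Podn (0.28) and Podnl1 (0.33) did not pass the test. Chad, Epyc and Kera were below the floor in all 16 samples. Loxl3, the remaining lysyl oxidase measured, rose by 0.83 ± 0.14 (adjusted p = 9.7e-05) from 4.07 to 4.77 in the controls to 4.60 to 5.51 in the NASH model samples, with the groups overlapping.

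**Figure D2:**
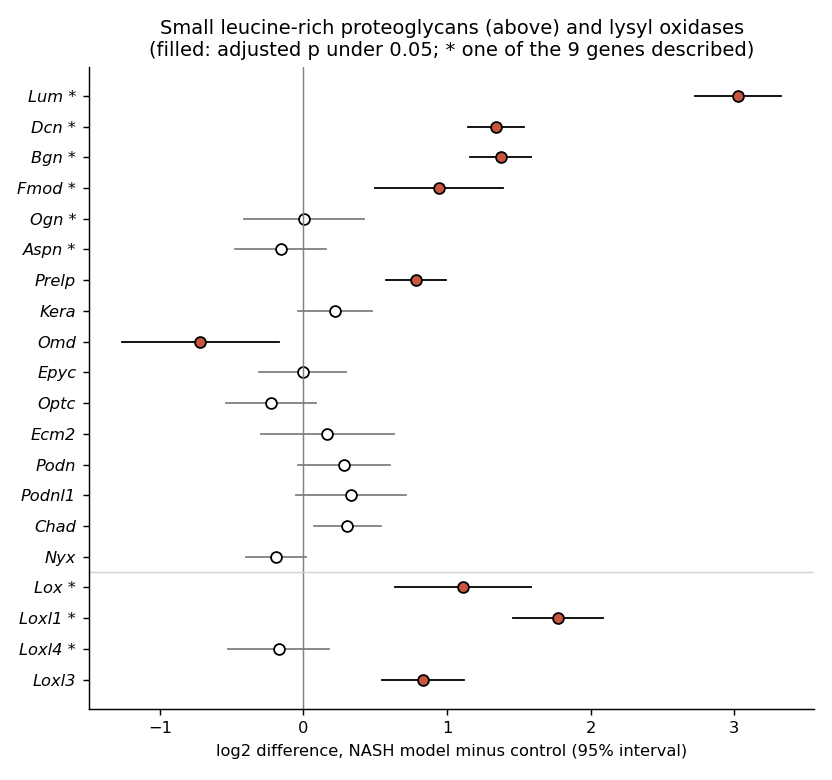
Log2 difference, NASH model minus control, with its 95% interval for each small leucine-rich proteoglycan (above the line) and lysyl oxidase (below it), 8 samples per group, with filled points at an adjusted p under 0.05. Lum stands at 3.03, the next largest value is 1.77 in Loxl1, and Omd at -0.72 is the filled point below 0, a call that was lost in 16 of 28 alternatives, cyclic loess and spike-in centring among them.

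Several of these proteoglycan genes sit side by side on the chromosome, in the RefSeq gene order of GRCm38.p6. On chromosome 10 the order is Dcn, Lum, Kera and Epyc, and the differences along it were 1.34, 3.03, 0.22 and -0.01. Chromosome 1 has Optc, Prelp and Fmod in that order, with -0.23, 0.78 and 0.94. Chromosome 13 has Ecm2, Aspn, Omd and Ogn, with 0.17, -0.16, -0.72 and 0.01. So the neighbours Dcn and Lum were called, and Kera and Epyc beside them stayed below the floor in every sample. Bgn lies on chromosome X with none of these genes beside it, and the lysyl oxidases measured lie on separate chromosomes. In the chromosome 13 group controls 5, 9 and 10 were the 3 highest controls for Ogn (4.83, 4.99 and 5.51), for Aspn (2.94, 3.05 and 2.62) and for Omd (4.50, 4.54 and 4.87). This was noticed after the values were seen and was not tested. For Ecm2 the 3 highest controls were numbers 3, 5 and 10.

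**Figure D3:**
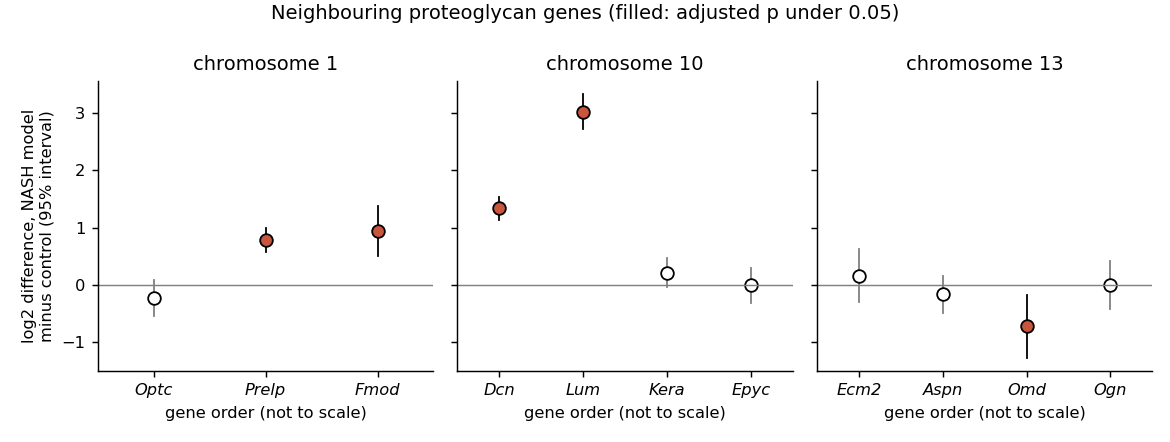
Log2 difference, NASH model minus control, with its 95% interval for neighbouring small leucine-rich proteoglycan genes on 3 chromosomes, in gene order and not to scale, with filled points at an adjusted p under 0.05. Dcn (1.34) and Lum (3.03) are filled and Kera (0.22) and Epyc (-0.01) are open on chromosome 10, while on chromosome 13 only Omd (-0.72) is filled, a call lost with cyclic loess and spike-in centring.

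Col3a1, the type III collagen chain abundant in early liver scar, served as the collagen reference. Its level was 4.62 to 6.41 in the controls and 7.64 to 8.91 in the NASH model samples, a rise of 2.95 ± 0.26 (adjusted p = 5.2e-08). Since the groups form separate clusters, relations were taken within each group of 8 samples. They comprised 18 relations in all, tested by exact permutation of pairings and adjusted over the 18. Within the NASH model Bgn followed Col3a1 with Pearson's r = 0.946 (exact p = 0.00062, adjusted 0.011) and Spearman's rho = 0.905 (exact p = 0.0046, adjusted 0.027). Dcn had r = 0.914 (exact p = 0.0012, adjusted 0.011) and rho = 0.905 (exact p = 0.0046, adjusted 0.027). Lum had r = 0.909 (exact p = 0.0021, adjusted 0.013) and rho = 0.929 (exact p = 0.0022, adjusted 0.027). Without NASH model samples 4 and 5, the farthest from the median of Col3a1, r was 0.910 for Bgn, 0.883 for Dcn and 0.860 for Lum. The points share their arrays and the normalisation of each array. How many of all genes follow Col3a1 this closely was not computed, so the relation cannot be called particular to these proteoglycans.

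Fmod had r = 0.815 (exact p = 0.016, adjusted 0.057) and rho = 0.738 (exact p = 0.046, adjusted 0.21) in the NASH model, and Loxl1 had r = 0.797 (exact p = 0.016, adjusted 0.057) and rho = 0.476 (exact p = 0.24, adjusted 0.44). Neither passed the adjustment. Without samples 4 and 5, r was 0.620 for Fmod and 0.511 for Loxl1. For Lox r was 0.517 (exact p = 0.19, adjusted 0.40) and rho 0.452 (exact p = 0.27, adjusted 0.44). It rested on samples 4 and 5, since r became -0.264 without them. Loxl4 moved the other way, from r = 0.392 (exact p = 0.34, adjusted 0.47; rho = 0.5, exact p = 0.22) to 0.928 without those samples. Ogn (r = 0.255, exact p = 0.56; rho = 0.024, exact p = 0.98) and Aspn (r = 0.269, exact p = 0.51; rho = 0.357, exact p = 0.39) did not pass. NASH model 5 was the lowest of its group in Lum, Dcn, Bgn, Fmod, Lox, Loxl1 and Col3a1 alike.

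Within the controls none of the 9 relations passed, and 0 of 9 had an unadjusted exact p under 0.05. The smallest p was that of Lum, with r = 0.701 (exact p = 0.054, adjusted 0.16), rho = 0.714 (exact p = 0.058, adjusted 0.21) and r = 0.589 without controls 3 and 9. Dcn had r = -0.469 (exact p = 0.24, adjusted 0.40), rho = -0.571 (exact p = 0.15) and r = -0.451 without those controls. Bgn had r = 0.503 (exact p = 0.21, adjusted 0.40), rho = 0.571 (exact p = 0.15) and r = -0.007 without them. Whether the relations differ between the groups was not tested.

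**Figure D4:**
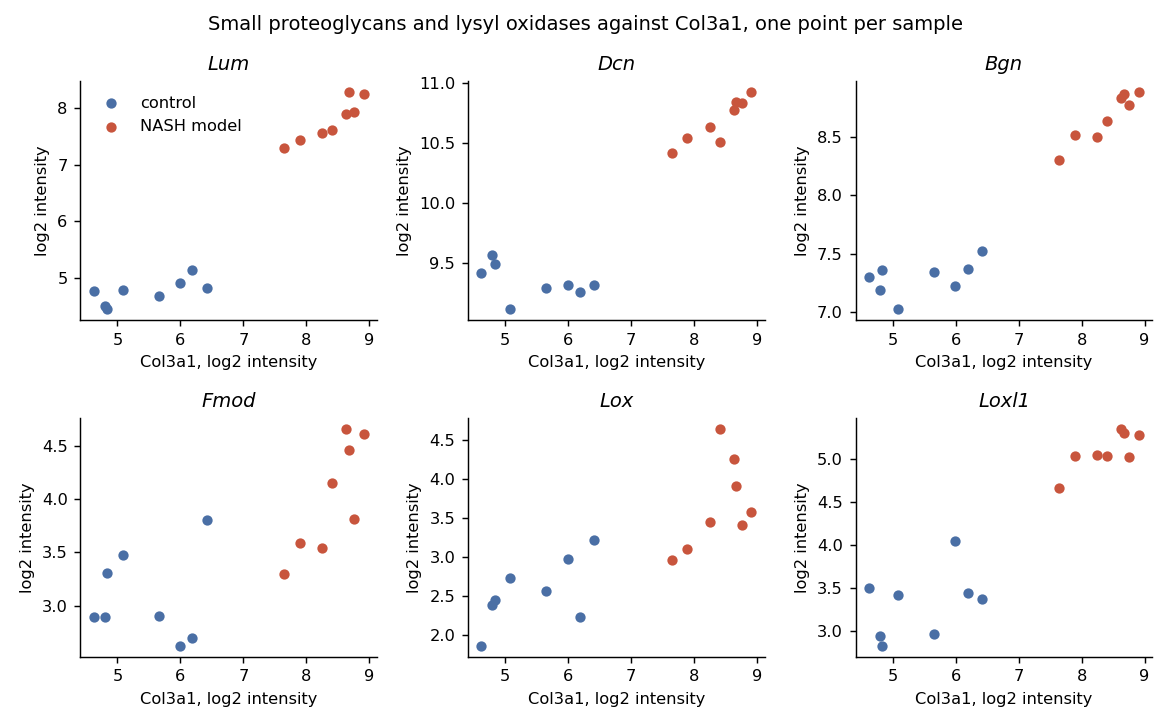
Normalised log2 intensity of 6 genes (vertical axes) against that of Col3a1 (horizontal axes), 1 point per sample, 8 controls in blue and 8 NASH model samples in red. Within the red points Lum, Dcn and Bgn rise with Col3a1 (r = 0.909, 0.914 and 0.946), while Lox does so less closely (r = 0.517).

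Profiles over the 16 samples were ranked by the Euclidean distance of log2 values minus the control mean. The genes described here and predicted or clone-named genes were left out. Nearest to Lum were Lilrb4a (0.940), Capg (1.19), Emp1 (1.22), Lgals1 (1.22) and Itgax (1.23). Their differences ran from 2.77 ± 0.15 in Itgax to 3.09 ± 0.17 in Emp1. For Loxl1 the nearest were Cd53 (0.672), Prkcb (0.832), Ifi27l2a (0.883), Krt8 (0.996) and App (1.05), with differences from 1.64 ± 0.13 in Prkcb to 1.81 ± 0.14 in Krt8. Itgax is also on the marker list for recruited macrophages. The distance takes in the group difference itself, so nearness does not show that genes vary together within a group.

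The collagens that these proteins act on were next described, again with 13.2% of all genes higher and 13.4% lower as the background. Of 10 fibrillar collagen and elastin genes 5 were called higher and 2 lower (median 0.78, against -0.04 over all genes). Besides Col3a1, the type I chains Col1a2 and Col1a1 rose by 1.99 ± 0.17 and 1.86 ± 0.17, and the type V chain Col5a2 rose by 1.05 ± 0.19. The fifth was Col5a1 (1.01 ± 0.19), and the lower ones were Col5a3 (-0.79 ± 0.12) and Col11a2 (-0.38 ± 0.13), named after their values were seen. In the limma fit Col5a3 had an adjusted p of 4.7e-05 without overlap of the groups, and Col11a2 one of 0.037 with overlap. One of the 2 lower calls was lost in many alternatives, among them the values as deposited, spike-in centring and the omission of control 1, 3, 5, 6 or 10 or of NASH model 2, 3, 5, 6 or 7. Elastin (Eln), the other substrate of Lox and Loxl1, had a difference of 0.55 ± 0.26 that missed the threshold (adjusted p = 0.13). Col2a1, the cartilage chain, had the difference nearest 0 (-0.05).

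Enzymes that modify or fold collagen chains came to 7 higher and 1 lower of 15 measured (median 0.29). Crtap, a part of the prolyl 3-hydroxylation complex, rose by 1.52 ± 0.11. The collagen chaperone Serpinh1 rose by 1.20 ± 0.17, the prolyl 3-hydroxylase P3h2 by 0.92 ± 0.17 and Colgalt1, which adds galactose to hydroxylysine, by 0.83 ± 0.09. The lower gene was the prolyl 4-hydroxylase subunit P4ha2 (-0.50 ± 0.11, named after its value was seen), and spike-in centring left 0 called lower while median centring gave 2. Plod1, a lysyl hydroxylase of collagen, had the value nearest 0 (-0.08 ± 0.11). Its relative Plod2 was called higher (0.79 ± 0.23, named after its value was seen).

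Genes that process procollagen or lysyl oxidases were split, with 3 higher and 3 lower of 10 measured (median 0.08). Postn, periostin, a matrix protein that helps bring the protease for Lox to the fibre, rose by 1.60 ± 0.23. Fbln5, which binds Loxl1 on elastic fibres, rose by 1.35 ± 0.20. Bmp1, the protease that removes the propeptides of procollagen and of Lox, fell by 0.75 ± 0.12 on the log2 scale, with no overlap between the groups. Pcolce2, an enhancer of that cleavage, fell by 0.995 ± 0.15 on that scale. Its relative Pcolce (0.55 ± 0.14, higher) and fibronectin, Fn1 (-0.30 ± 0.07, lower), complete the calls and were named after their values were seen. Tll1, a relative of Bmp1, was below the floor in all samples.

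For the sugar chains, 7 of 21 measured genes of chondroitin and dermatan sulphate synthesis were called higher and 2 lower (median 0.22). The chain polymerising factor Chpf rose by 1.30 ± 0.15, the chondroitin sulphotransferase Chst11 by 1.05 ± 0.20 and the dermatan sulphate epimerase-like gene Dsel by 0.67 ± 0.20. The Dsel call was lost without NASH model 2 and 7 (adjusted p = 0.086). Chst13, another chondroitin sulphotransferase, fell by 0.85 ± 0.16, as did the linker enzyme B3gat3 by 0.67 ± 0.12 (named after its value was seen). Xylt2, which attaches the first sugar, was nearest 0 (-0.02 ± 0.12), while its relative Xylt1 was called higher (0.61 ± 0.14, named after its value was seen). Of 8 keratan sulphate genes 0 were called higher and 2 lower (median -0.13). These were the galactosyltransferase B4galt1 (-0.56 ± 0.12) and the sulphotransferase Chst2 (-0.48 ± 0.13), and the Chst2 call was lost with spike-in centring (adjusted p = 0.14) and with the replicate number as a block (adjusted p = 0.0505). Chst1, Chst4 and Chst5, further sulphotransferases of the list, were below the floor in all samples.

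Of the 13 large and basement membrane proteoglycans 4 were called higher and 2 lower (median -0.03). Esm1, endocan, rose by 1.02 ± 0.28, serglycin, Srgn, the proteoglycan of blood cell granules, by 0.77 ± 0.13 and agrin, Agrn, by 0.59 ± 0.13, while lubricin, Prg4, fell by 0.84 ± 0.22. The other calls, perlecan (Hspg2, 0.49 ± 0.14) and collagen XVIII (Col18a1, -0.38 ± 0.09), were named after their values were seen. Of 13 measured genes on a list of receptors for matrix proteoglycans, collagen and related ligands, 9 were called higher and 2 lower (median 0.75). The hyaluronan receptor Cd44 rose by 1.99 ± 0.14, the biglycan receptor Tlr4 by 1.14 ± 0.14 and the transforming growth factor beta receptor Tgfbr1 by 1.07 ± 0.11. Egfr, a receptor that decorin binds, fell by 1.29 ± 0.18, and Met, which decorin also binds, by 0.46 ± 0.09 (named after its value was seen). The collagen receptor subunit Itga11 was below the floor in 8 of 8 controls and above it in 1 of 8 NASH model samples.

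**Figure D5:**
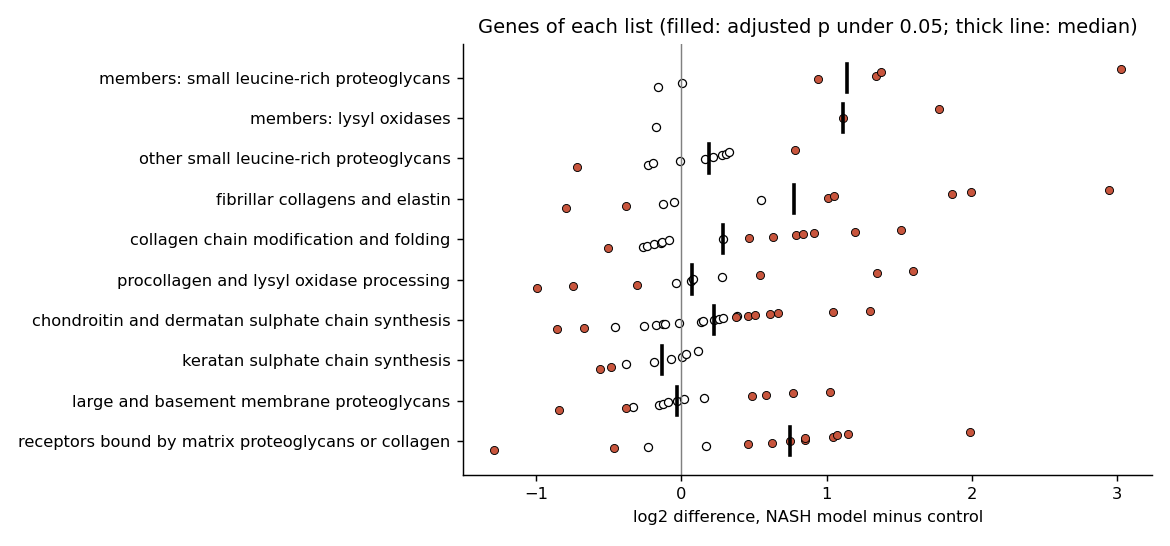
Log2 difference, NASH model minus control, of each measured gene (points) by gene list, with filled points at an adjusted p under 0.05 and a thick line at each list's median. The medians are 1.14 for the 6 proteoglycans and 1.11 for the 3 lysyl oxidases described, 0.78 for the fibrillar collagens with elastin and -0.13 for keratan sulphate synthesis.

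Marker lists of cells that make or surround this matrix are read against the same 13.2% of all genes called higher and 13.4% lower. Of 9 stellate cell markers 4 were called higher and 0 lower (Pdgfrb by 1.67 ± 0.13), with summed levels of 8.82 to 9.15 in the controls and 9.49 to 9.76 in the NASH model. Myofibroblast markers were higher in 5 of 8, with sums of 7.29 to 7.96 and 8.27 to 9.34, led by Timp1 (2.37 ± 0.25) and Col1a1. Portal fibroblast and mesothelium markers were higher in 5 of 11 (3 of 11 without NASH model 1a and 1b), with sums of 6.73 to 7.12 and 7.23 to 7.99, led by Cd34 (1.66 ± 0.23), and Pi16 was below the floor throughout. Among these calls that of Gpm6a (0.68 ± 0.25) held in only 11 of 28 alternatives. The median difference of this list was 0.02. Vascular smooth muscle gave 1 of 6 (Smtn, 0.44 ± 0.14), near the background share and a call lost without NASH model 2 and 7 and with the replicate number as a block, with sums of 6.06 to 6.82 and 6.31 to 7.12.

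Recruited macrophage markers were higher in 9 of 9, with sums of 8.25 to 9.15 in the controls and 11.7 to 12.2 in the NASH model, and Gpnmb differed by 7.51 ± 0.19. Cholangiocyte markers were higher in 5 of 8, with sums of 6.94 to 7.77 and 6.88 to 9.39. Tspan8 among them was above the floor in 1 of 8 controls and 7 of 8 NASH model samples, and Muc1 (2.28 ± 0.33) in 6 of 8 controls and 8 of 8 NASH model samples. Of 6 Kupffer cell markers 1 was higher and 3 lower, with overlapping sums of 8.94 to 10.2 and 9.004 to 9.84. The lower ones were Cd163 (-2.84 ± 0.13, without overlap of the groups), Clec4f (-0.97 ± 0.23) and Timd4. Mean Timd4 was 4.85 in the controls and 2.85 in the NASH model. In the NASH model Cd163 stood above the floor in 5 of 8 samples and Timd4 in 3 of 8. The higher call, Cd5l (0.65 ± 0.18), was lost with the replicate number as a block (adjusted p = 0.087). Sinusoidal endothelium had 2 higher and 4 lower of 8, with sums of 9.70 to 10.2 and 9.40 to 9.80. Of 8 hepatocyte markers 0 were higher and 2 lower, F7 (-0.84 ± 0.11) and Hnf4a (-0.66 ± 0.10). The part of these cell types in the proteoglycan and lysyl oxidase differences was not tested.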

How the data were processed

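The authors deposited log2 values for 29129 probe sets of 16 single-colour arrays. Per the labels' protocols, RNA was isolated with TRIzol and labelled with biotin. The authors' normalization of them was not given in the sources used here. Deposited values ran from 0.623 to 12.7, with column medians of 3.52 to 3.66. Quantile normalization over all probe sets changed no value by more than 0.159. Of the probe sets 19572 had 1 gene symbol, giving 19505 genes. Groups were compared with limma 3.58.1 in R 4.3.3 (lmFit and eBayes, group only), with Benjamini-Hochberg adjustment over all genes and no filter on dim genes. The fit was tested on simulated data. The number of arrays limits the precision. Exact permutation tests used Python 3.11.15 and scipy 1.17.1.

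The genes and lists were chosen with earlier results of these data known. Genes named from a list were mostly drawn from its 4 called genes with the largest differences and the gene nearest 0. Not every such gene is named, least of all in the marker lists. The other small leucine-rich proteoglycans measured are all named. Eln, Chst1, Chst4, Pi16 and the genes said to be named after their values were seen stand outside this rule. NASH model 1a and 1b share a number and may come from 1 mouse, which the labels do not say. They differed like other NASH model samples (SD of differences 0.387, against 0.340 to 0.466 in 27 other pairs). That spread cannot settle their origin, and they were counted separately. The relations to Col3a1 were not repeated with 1a and 1b averaged. Alternatives covered normalization, the dim filter, the probe sets of a gene, the variance model, array weights, a replicate block and the omission of samples.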

Additional observations from a re-analysis of the deposited data

How the results depend on the processing

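The 6 called genes kept their call and direction in every alternative run for them, with differences of 2.93 to 3.18 for Lum, 1.25 to 1.42 for Dcn, 1.27 to 1.45 for Bgn, 0.74 to 1.11 for Fmod (adjusted p up to 0.014), 0.97 to 1.24 for Lox (adjusted p up to 0.0076) and 1.68 to 1.96 for Loxl1. Without the dimmest 40% of genes Lox and Aspn were not tested, and 5 genes were called higher. The Ogn difference turned sign with NASH model 1a and 1b averaged (-0.0061) or left out (-0.021), and ran from -0.089 to 0.14 over the omissions of 1 sample. The Loxl4 difference turned sign with spike-in centring (0.060) and the replicate block (0.011). Over the omissions of 1 sample the gap between Dcn and Bgn ran from -0.070 to 0.014, and that between Lox and Loxl1 from -0.81 to -0.57. Samples with the same number in the labels showed no shared deviation (correlations of -0.026 to 0.059 over 7 same-numbered pairs), which cannot exclude a pairing. With the replicate block 2063 genes were called higher and 1861 lower, 6 of the 9 genes among the former (Lum 3.02, adjusted p = 3.4e-07). Among other small leucine-rich proteoglycans 2 were called higher in place of 1 with spike-in centring, with array weights, and without NASH model 3, 7 or both 2 and 7, control 3 or control 10. The alternative of comparing Loxl1 with Loxl2 was not run. The cause of these changes was not tested. Signals near the floor limit Fmod, Lox and Aspn most.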
